A study of Mus musculus with 8 samples.

Results

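The 100 transcripts with the shortest poly(A) tails in control cells were followed through the other libraries of the experiment. They were chosen from the reads of both libraries of P19 cells treated with DMSO for 24 h. In these libraries, 1069 of the 27609 transcripts with usable mRNA reads had at least 60 reads, and the 100 with the lowest median tail are called members here. They belonged to 93 genes, since 5 genes gave 2 members each and Rps14 gave 3. Of the members, 96 were annotated as protein coding, 2 as retained introns (of Rpl23a and Eef1g) and 2 as processed transcripts (of Rpl24 and Rpl37rt). The tail lengths of the 24 h DMSO libraries made the choice, so they are given as a description with no test, as is the whole comparison at 24 h.

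P19 is a mouse embryonal carcinoma line that grows as undifferentiated, pluripotent-like cells. Wild-type P19 cells, not induced to differentiate, were given MHY1485 (MHY, a small molecule that activates the mTOR kinase) at 10 µM or the same amount of its solvent DMSO, for 24 h or 48 h. Each of the 4 groups had 2 replicate libraries of poly(A) RNA read by nanopore direct RNA sequencing, in which each read is 1 native mRNA with 1 tail length. The libraries are named by the numbers of the deposited table, 21 and 23 at 24 h and 24 and 25 at 48 h, which are names and not hours. No sequencing run held both time points, so time and run cannot be told apart, and all replicates came from 1 cell line.

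The poly(A) tail is added to an mRNA in the nucleus, is covered by poly(A)-binding proteins in the cytoplasm, and is then shortened by deadenylases. Loss of the tail opens the way to decay, yet many abundant and stable mRNAs, ribosomal protein mRNAs among them, are known to carry short tails at steady state. Ribosomal protein mRNAs also begin with a 5′-terminal oligopyrimidine (TOP) stretch, through which mTOR controls their translation.

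Sequencing gave 178369 to 316546 usable mRNA reads per library, of which members took 5.28% to 5.78%. Of 13 pluripotency marker genes, 12 had reads, at a summed 3499 to 4042 RPM in a library (reads scaled to its total of usable mRNA reads), and Zfp42 had none. Of 10 neuronal markers 7 had reads (220 to 404 RPM, with Dcx and Rbfox3 among those at 0), and of 11 endoderm, mesoderm and fibroblast markers 8 had reads (16.8 to 259 RPM, with Afp, Col3a1 and Sox17 at 0). At least 20 reads were reached by 8, 2 and 1 genes of these lists, in that order. The last list, with 1 such gene, was at 16.8 to 68.9 RPM at 24 h and 70.6 to 259 RPM at 48 h. Its part in the comparisons over time was not tested. MHY library 24 of 48 h stood apart, with the shortest tails of all 8 libraries in members and in other transcripts.

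The annotated 3′ ends of the members carried the usual cleavage signal about as often as those of other transcripts. The hexamer AATAAA, the main poly(A) signal, lay in the last 40 bases of 67 of 99 annotated members (67.7%) and of 628 of 962 other ranked transcripts (65.3%), on the transcript strand. The variant ATTAAA lay there in 14 members (14.1%) and 161 others (16.7%). These shares are descriptions, and a window without the letters says only that they were not found there. The last 30 bases of the annotated transcript are shown for the 3 members with the lowest baseline median and, for comparison, for Rpl7a (GENCODE vM21 transcripts, build mm10, 3′ end of the 3′ UTR or of the last exon, 5′ to 3′, with the hexamer in capitals). Rpl7a is a deeply read member whose read number was called lower at 48 h, a call that several alternatives given below did not keep.
Mrpl2: tggactctAATAAAatgtctcttgttttta
Vim: gttactgcttcAATAAAtcttcaaaaatac
Rps19: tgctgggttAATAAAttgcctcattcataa
Rpl7a: tacctaaatataattacaaaattatcttga
They lie at chr17:46650103-46650132 (plus strand), chr2:13582797-13582826 (plus), chr7:24889777-24889806 (plus) and chr2:26913289-26913318 (plus), in that order. The first 3 hold the main signal, starting 22, 19 and 21 bases before the annotated end. Rpl7a holds neither hexamer in these 30 bases. Of the reads of these 4 transcripts, 90.4% (Vim) to 98.1% (Mrpl2) ended within 20 nt of the annotated end. No read of the Apoe member did, with a median gap of 161 nt, so its annotated end is not shown.

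At baseline the median tails of the members ran from 62.3 nt (Mrpl2) to 85.9 nt (Glrx5), with a median of 82.5 nt over the members, against 99.995 nt over all ranked transcripts and 101.5 nt over the other 969. Just inside the threshold stood Strap (85.9 nt), Tmem97 (85.9 nt) and Glrx5, and just outside it Rpl35a (86.0 nt), Gcsh (86.1 nt) and Pcbp4 (86.1 nt). Those 3 outsiders lay at 81.2, 96.3 and 94.4 nt over the reads of the other 6 libraries, and Strap, Tmem97 and Glrx5 at 89.4, 92.6 and 84.96 nt. The order near the threshold was thus not kept. A member's baseline median rested on 60 to 3145 reads (median 112).

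In the other 6 libraries the members still had short tails, though less so than where they were chosen. Their median over the pooled reads of these libraries ranged from 69.9 nt (Gm10260) to 106 nt (Sparc), with a median of 84.8 nt over members and 97.7 nt over the other ranked transcripts. In 91 of 100 members it lay below the median of all ranked transcripts (96.7 nt), as it did in 443 of the 969 others (45.7%). In 48 members the median lay below that of the ranked transcripts in each of the 6 libraries, against 133 of the others (13.7%). Compared with baseline, 65 members had a higher median in the other libraries and the typical member moved by 2.94 nt, while the typical other transcript moved by -4.23 nt and 247 of 969 (25.5%) were higher.

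**Figure D1:**
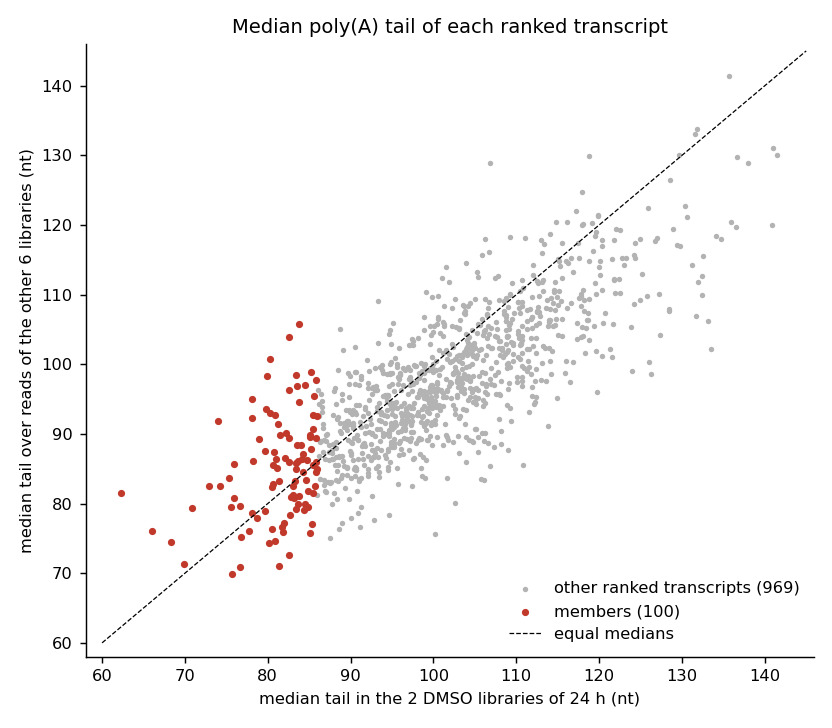
Median tail of each ranked transcript in the 2 DMSO libraries of 24 h (horizontal axis, nt), which made the choice, against its median over the reads of the other 6 libraries (vertical axis, nt). Red points are the 100 members, grey points the other 969, and the dashed line marks equal medians. The members end at 85.9 nt on the horizontal axis by construction and run from 69.9 to 106 nt on the vertical axis, where 91 of them lie below the median of all ranked transcripts.

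Choosing the lowest 100 anew in another group recovered part of the members. It gave 41 members of the 85 ranked in MHY at 24 h, 46 of the 98 ranked in DMSO at 48 h and 35 of the 100 ranked in MHY at 48 h. The members found there were 48.2%, 46.9% and 35.0% of the members ranked, where the lowest 100 are 10.8%, 8.37% and 7.82% of all transcripts ranked in these groups. In the 6 libraries pooled, a ranking added after the data had been seen, 48 of 98 ranked members were among the lowest 100 of 1146 transcripts.

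Pooled over all members, tails were shorter than those of other transcripts in the 6 libraries outside baseline, and more of them were very short. Tails were sorted into 3 classes after the study: under 30 nt (<30-nt), 30 to 90 nt (~60-nt) and over 90 nt. In the 6 libraries that the rule did not use, the pooled median of members lay 12.2 to 15.1 nt below that of other ranked transcripts. Their <30-nt share was 3.96% to 7.68%, against 1.89% to 3.97% in other ranked transcripts, and within each library it was higher by 2.02 to 3.704 percentage points. Their ~60-nt share was 48.8% to 52.2% against 40.8% to 45.9%. In these 6 libraries the most populated 10-nt bin of members' tails started at 40 to 60 nt, and that of other transcripts at 60 or 70 nt.

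**Figure D2:**
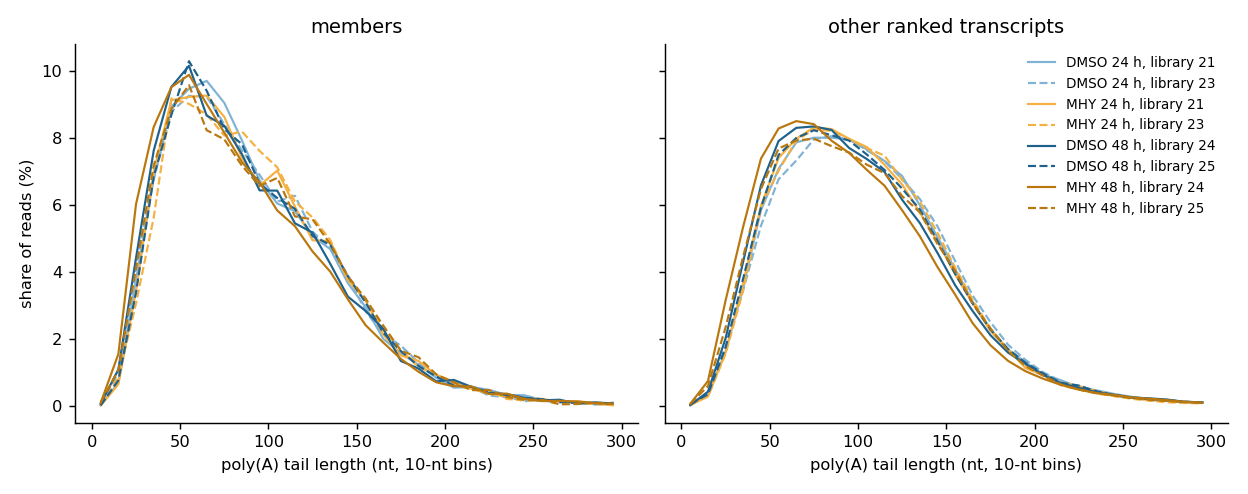
Distribution of tail lengths in 10-nt bins (horizontal axis, nt; vertical axis, % of a library's reads) for members (left) and the other ranked transcripts (right), 1 line per library. In the 6 libraries outside baseline, members' curves peak at bins starting between 40 and 60 nt, with 9.18% to 10.3% of reads in the highest bin, and both panels share a long right shoulder.

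By role, the cytosolic ribosomal proteins were the largest group and had the shortest tails outside the baseline libraries. Roles were assigned by hand once the members were known. This role held 21 transcripts of 16 genes and 55.0% of all member reads. Its members had a median of 79.5 nt in the other 6 libraries (69.9 to 87.9 nt). The 2 roles with the highest medians outside baseline were RNA processing, nucleolus and chromatin (9 members, 89.9 nt) and the secretory pathway, lysosome and extracellular proteins (13 members, 89.9 nt). Folding, redox and small-molecule metabolism (8 members) had 87.3 nt, and the proteasome and its assembly (8) 86.1 nt. Translation initiation and elongation factors (6), mitochondrial import, carriers, energy metabolism and inner membrane (14), cytoskeleton, transport, cell division and signalling (12) and the mitochondrial ribosome (9) had 85.2, 85.1, 83.7 and 83.7 nt.

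**Figure D3:**
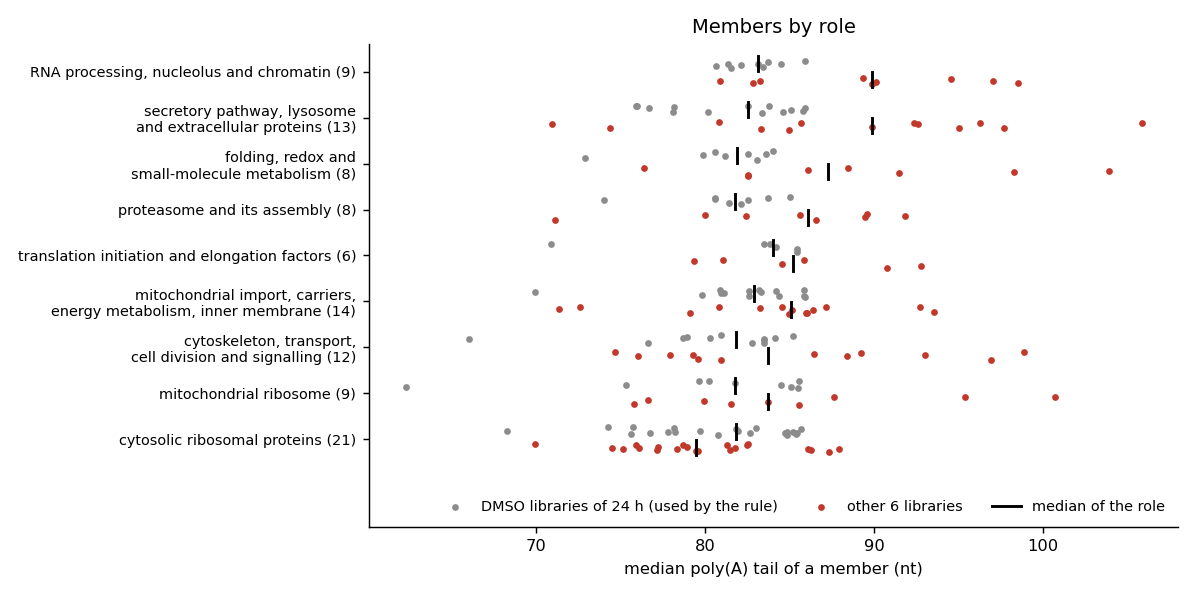
Median tail of each member (horizontal axis, nt) by role (vertical axis, number of members in parentheses). Grey points are the 24 h DMSO libraries that made the choice, red points the reads of the other 6 libraries, and black bars the median of a role in each. The red points of the cytosolic ribosomal proteins centre on 79.5 nt and none exceeds 87.9 nt, while those of the secretory role reach 106 nt.

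The study's own list of TOP genes supplied 20 members. They were 16.8% of its 119 ranked transcripts, where members are 9.35% of all ranked transcripts. In the ranking of the other 6 libraries, 30 of the 121 ranked transcripts of this list were among the lowest 100 (24.8%, against 8.73% of all). With its names written as mouse symbols, the list gave 20 members of 134 ranked transcripts and 32 of 136 among the lowest 100 of the other libraries. Proteasome subunits, which form the protease that degrades ubiquitin-tagged proteins, supplied 7 of their 27 ranked transcripts (25.9%), and 5 of 27 in the other libraries (18.5%). Mitochondrial ribosomal proteins, a list drawn by name after the members were seen, gave 8 of 28 ranked transcripts (28.6%) and 5 of 35 in the other libraries (14.3%).

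Of the gene lists examined, 8 gave no member, which at 9.35% of all ranked transcripts says little for the short ones. These were the glycolytic enzymes (0 of 18 ranked transcripts), actin cytoskeleton (0 of 14), Sm and LSm proteins of the spliceosome (0 of 12), histones and chromatin proteins (0 of 9), tubulins (0 of 6), pluripotency markers (0 of 3), and the poly(A) tail machinery and neuronal markers (0 of 1 each). No transcript of the endoderm, mesoderm and fibroblast list was ranked. Chaperones gave 2 of 27 (Hspa8, the constitutive cytosolic heat-shock protein, and Ppib, an endoplasmic reticulum prolyl isomerase), complex I of the respiratory chain 1 of 32 (Ndufa8), and complexes II to V 3 of 43 (Atp5o and both transcripts of Atp5g1, subunits of the ATP synthase). Secreted and membrane glycoproteins gave 2 of 3 (Apoe and Sparc), neither of which was among the lowest 100 in the other libraries.

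The members with the most reads were ribosomal protein mRNAs, and 4 of them are described here. The main transcript of Rpl32, a protein of the large subunit, had a median tail of 84.4 and 85.1 nt in DMSO at 24 h and 81.9 and 83.2 nt in MHY at 24 h. At 48 h it had 77.2 and 83.7 nt in DMSO and 73.4 and 78.5 nt in MHY (9262 reads in the 6 libraries outside baseline). Its MHY library 24 of 48 h was the lowest of all 8, and the groups of 48 h overlapped.

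Rpl7a, also of the large subunit, had 75.5 and 79.2 nt in DMSO and 70.2 and 83.2 nt in MHY at 48 h, after 79.8 and 82.3 nt in MHY at 24 h. The main Rps14 transcript, of the small subunit, had 74.8 and 76.5 nt in DMSO and 69.1 and 77.8 nt in MHY at 48 h, after 81.1 and 82.3 nt in MHY at 24 h. In both genes the MHY libraries of 48 h lay on either side of the DMSO libraries. None of the reads of this Rps14 transcript reached a mapping quality of 10, so they could not be assigned with certainty to 1 of the 3 Rps14 members.

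Rpl24, of the large subunit, had 75.8 and 81.7 nt in DMSO and 75.7 and 80.2 nt in MHY at 48 h, and 79.96 and 83.6 nt in MHY at 24 h. The groups of 48 h overlapped. Over the 6 libraries outside baseline, the medians of these 4 transcripts ranged over 7.90 nt (Rpl24) to 13.2 nt (Rps14).

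Gm10260 had the shortest tails of all members outside baseline. Its transcript is a close copy of Rps18, the small-subunit ribosomal protein (99.1% identity over 545 of its 561 bases), and only 14.7% of its reads reached a mapping quality of 10, so reads of the 2 genes could not be told apart with certainty. Its medians were 73.99 and 81.5 nt in MHY at 24 h, 73.6 and 69.96 nt in DMSO at 48 h and 63.0 and 71.2 nt in MHY at 48 h. The members Rpl9-ps6 and Rpl37rt also share long stretches with another gene, Rpl9 (99.9% over 692 of 714 bases) and Rpl37 (99.7% over 344 of 682 bases).

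The 10 lowest baseline medians were each followed by a higher one. Mrpl2, a protein of the large mitochondrial ribosomal subunit, headed the list with 62.3 nt, on 65 reads. It had 104 and 116 nt in MHY at 24 h, 71.4 and 82.3 nt in DMSO at 48 h and 63.6 and 68.0 nt in MHY at 48 h, on 14 to 52 reads per library. Its median over their reads was 81.5 nt, and the libraries ranged over 52.0 nt.

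Timm23, the channel of the inner mitochondrial membrane translocase, had 69.9 nt at baseline and 71.3 nt in the other libraries. It had 71.6 and 79.0 nt in MHY at 24 h, 71.97 and 75.5 nt in DMSO and 67.9 and 71.1 nt in MHY at 48 h (500 reads). Vim, the intermediate filament protein vimentin, had 66.0 nt at baseline and 76.0 nt over 518 reads of the other libraries.

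Rps19 (small ribosomal subunit) had 68.3 nt at baseline and 74.5 nt elsewhere, the highest library being DMSO 24 of 48 h with 84.6 nt. The initiation factor subunit Eif3g went from 70.9 to 79.4 nt, and the deoxyhypusine hydroxylase Dohh from 72.9 to 82.5 nt. Psmc5, an ATPase of the proteasome cap, went from 74.0 to 91.8 nt, Mrpl42 of the mitochondrial ribosome from 75.3 to 83.7 nt, and a minor Rps14 transcript from 75.6 to 79.6 nt.

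At the upper end outside baseline stood Sparc, a secreted matrix glycoprotein, with 106 nt on 228 reads. Txnl1, a thioredoxin-like protein, had 104 nt, Mrpl15 100.7 nt, Cdca3, a trigger of mitotic entry, 98.9 nt, and Gatad1, a chromatin zinc finger protein, 98.5 nt. Txnl1 lay between 98.2 and 118 nt in each of the 6 libraries after 82.5 nt at baseline. At the lower end, beside Gm10260 and Timm23, stood Snf8 of the ESCRT-II complex (71.0 nt), the proteasome assembly chaperone Psmg1 (71.1 nt) and the isocitrate dehydrogenase subunit Idh3b (72.6 nt).

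The widest spread between libraries, among members with at least 20 reads in each, was that of Rpl30. Its member transcript went from 62.3 nt (MHY library 24 of 48 h) to 119 nt (DMSO library 24 of 48 h), on 21 to 54 reads per library. Psmg1 ranged over 51.7 nt, the exon junction protein Rbm8a over 50.3 nt, the isocitrate dehydrogenase subunit Idh3g over 45.9 nt and the Eef1g retained intron over 44.8 nt. These members had 199 to 259 reads in 6 libraries, whereas the 5 most-read members had 4277 to 9262.

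Of the member genes, 19 had more than 1 ranked transcript, and in 6 of them each ranked transcript was a member. In the other 13 genes, the member could be set beside the most-read ranked transcript that was no member. In the other 6 libraries the member was lower in 12 of the 13 genes, by a median of 4.40 nt, and had fewer reads in 11. The rule had picked the member of each pair for its short tail and not the other. Members as a whole also stayed lower (84.8 against 97.7 nt), so the count is no result about isoforms. Rpl41 had a further transcript that was no member and lay at 82.3 nt, below the member at 86.3 nt. The largest gap was that of Rpl23a, whose retained-intron member had 77.2 nt and its main transcript 89.1 nt. Eif4h was the exception, with 90.7 against 86.8 nt. These pairs share sequence, and in several few reads reached a mapping quality of 10, such as 12.2% for Rpl23a and 3.15% for the member of Rpl19.

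The members were shorter mRNAs than the rest. Their median annotated length was 1137 nt against 1580 nt, and their median 3′ UTR 266 nt against 461 nt, while the coding length was close (648 and 672 nt, 95 and 944 transcripts with an annotated coding region). GC content was 51.8% and 50.2%. Across the ranked transcripts with an annotation (1039 for the 3′ UTR, and 99 members with 962 others for length and GC), which share libraries and depth, the median tail over the other 6 libraries had a Spearman correlation of 0.30 with transcript length, 0.28 with 3′ UTR length and -0.16 with GC content. Over all 1069 it had 0.31 with a transcript's median translocation rate, which enters the estimate of tail length, and -0.14 with its read number. Of the members, 25 had fewer than 50% of their reads at a mapping quality of 10 or more, as had 190 of the others (19.6%). The median share of reads that ended within 20 nt of the annotated 3′ end was 92.4% in members and 81.1% in others, but the lower quartile was 2.16% and 1.83%, so in many transcripts of both sets almost no read ended there.

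The values compared between MHY and DMSO at 48 h came from libraries that the rule had not used, while the spread behind the tests below was estimated over all 8 libraries. In pooled reads the <30-nt share of members was 5.58% (library 24; Wilson 95% interval 5.18% to 6.02%) and 4.18% (library 25; 3.89% to 4.49%) in DMSO, and 7.68% (library 24; 7.29% to 8.09%) and 5.30% (library 25; 4.91% to 5.73%) in MHY. The intervals cover counting error only. The groups overlapped, with 4.88% ± 0.990 (SD, n = 2) in DMSO and 6.49% ± 1.68 (SD, n = 2) in MHY, a difference of 1.61 percentage points. Within the sequencing runs of 48 h it was 1.49 and 1.69 points, and with 1 library left out it went from 0.420 points (without MHY library 24) to 2.80 points (without MHY library 25).

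Other ranked transcripts went from 2.16% and 2.48% in DMSO to 3.02% and 3.97% in MHY, without overlap, a difference of 1.17 points. The pooled median tail of members was 80.1 and 82.9 nt in DMSO and 76.8 and 84.0 nt in MHY, a difference of -1.08 nt within overlapping groups, which turned to 2.52 nt without MHY library 24 and to 0.325 nt without DMSO library 25. In other transcripts it was -3.21 nt, also with overlap. The ~60-nt share of members was 51.6% ± 0.356 in DMSO and 50.6% ± 2.25 in MHY (SD, n = 2), and the groups overlapped.

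**Figure D4:**
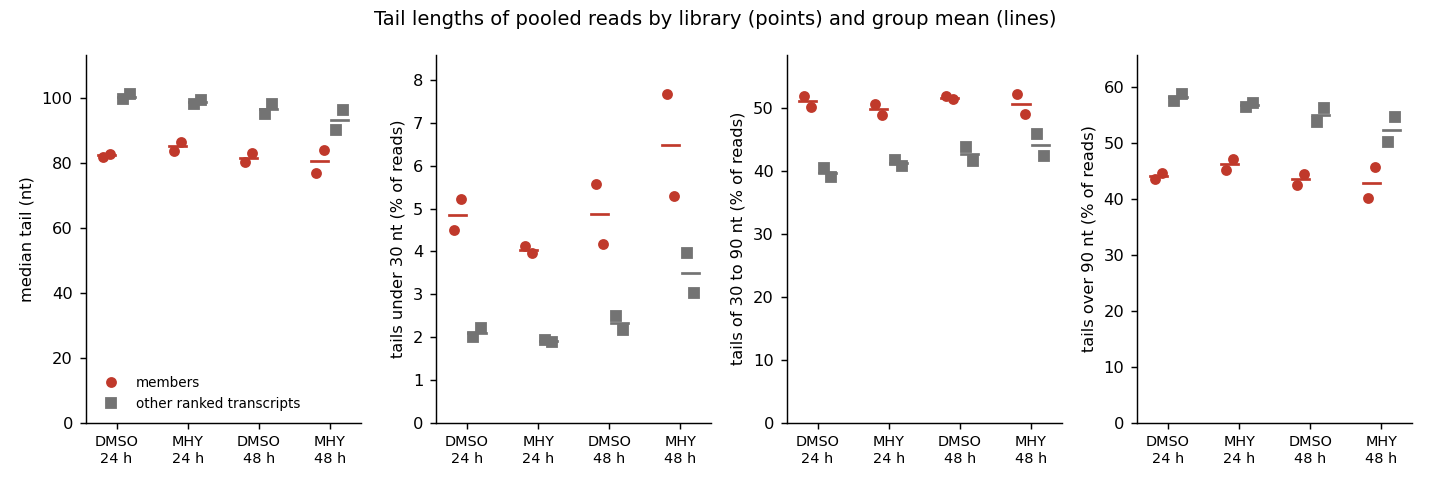
Median tail (nt) and shares of reads in the 3 tail classes (%) for pooled members (red circles) and other ranked transcripts (grey squares), by group. Each point is 1 library and each line a group mean (n = 2). Members lie below the others in median and above them in the <30-nt share in each of the 6 libraries that the rule did not use, and in MHY at 48 h their <30-nt shares are 5.30% and 7.68%.

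Transcript by transcript, no member passed the test at 48 h in the <30-nt share. All 100 members had the 10 reads per library that the fit asked for. Called means a Benjamini-Hochberg adjusted p under 0.05 in a limma fit across all 1866 transcripts tested, of which 7 (0.375%) were called, each higher under MHY. At an unadjusted limma p under 0.05 stood 14 members, 13 of them higher, where 10.6% of all transcripts passed. The change in the log2 odds of a short tail was above 0 in 73 members, with a median of 0.63, against 66.9% and a median of 0.43 over all transcripts tested. Without MHY library 24 the median change was 0.33 in members, 63 of them above 0, and 0.34 in other transcripts, and without DMSO library 25 it was 0.26 and 0.29. With weights from the counting variance, an alternative added after the data had been seen, 3 members were called (Rpl24, Rps14 and Gm10260) of 30 transcripts in all. With the 4 libraries of 48 h alone, no member was called in the <30-nt share (8 transcripts in all), in the ~60-nt share (0) or in the median tail (25).

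Those 3 had the following <30-nt shares at 48 h. Rpl24 had 4.69% and 3.63% in DMSO and 8.69% and 6.65% in MHY. The main Rps14 transcript had 5.64% and 4.80% in DMSO and 9.27% and 7.35% in MHY. Gm10260 had 5.64% and 4.23% in DMSO and 10.7% and 7.42% in MHY. In each of them the MHY values exceeded both DMSO values, as in the pooled reads of other ranked transcripts. They were picked for a call in this same measure, so this order adds no support. In the limma fit weighted by read number the changes were 1.02 ± 0.24, 0.77 ± 0.18 and 1.05 ± 0.28 on the log2 odds scale (± SE, n = 2), with adjusted p of 0.159, 0.159 and 0.202.

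No member was called in the ~60-nt share, where 5 of 1866 transcripts (0.268%) were, all higher, and 4 members had an unadjusted limma p under 0.05 (6.11% of all). No member was called in the median tail at 48 h either, where 26 of 1866 (1.39%) were called, all lower, and 3 members passed unadjusted (7.88% of all). The median change was -1.22 nt over members and -2.95 nt over other transcripts, and its direction rested on single libraries. It was 2.28 nt over members and 0.60 nt over others without MHY library 24, and 1.08 and -1.83 nt without DMSO library 25. Over members it was -2.41 nt without DMSO library 24 and -5.30 nt without MHY library 25. Rpl32 came nearest, with -5.61 ± 1.87 nt (SE, limma adjusted p = 0.155), and it was called when the mean replaced the median (-5.75 nt, limma adjusted p = 0.0415).

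By role, the pooled <30-nt share at 48 h was higher in both MHY libraries than in both DMSO libraries for the cytosolic ribosomal proteins (6.55% against 4.63% in group means), the proteasome and its assembly (6.97% against 4.57%), mitochondrial import, carriers, energy metabolism and inner membrane (6.83% against 4.23%) and RNA processing, nucleolus and chromatin (7.82% against 4.32%). The other ranked transcripts, given above, were also higher without overlap, so the separation is not particular to these roles. In the 5 other roles the groups overlapped. The secretory role was the one in which the median tail did not overlap, at 81.1 and 85.4 nt in DMSO and 89.5 and 90.8 nt in MHY. This role includes Apoe (96.3 nt outside baseline), whose read number was called higher at 48 h. Pooled reads cannot tell a change in the mix of transcripts from a change in tails. These are descriptions of pooled reads with no test.

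Read numbers changed at 48 h in 3 of 100 members, where 71 of 4104 transcripts (1.73%) were called. Vim and Apoe rose, as did 0.39% of all transcripts, and Rpl7a fell, as did 1.34%. At an unadjusted limma p under 0.05 stood 18 members (12.9% of all transcripts). Bulk reads cannot tell a change in RNA per cell from a change in the make-up of the culture. Without MHY library 24 no member was called, and the log2 change was 0.94 for Apoe (limma adjusted p = 0.0946), 0.53 for Vim (0.6998) and -0.22 for Rpl7a (0.720). The change of Apoe was thus close to the value from all libraries, while those of Vim and Rpl7a were smaller by over 1.5 times.

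Vim had 43.1 and 56.7 normalized reads in DMSO and 151 and 73.1 in MHY at 48 h, a log2 change of 1.10 ± 0.21 (SE, n = 2, limma adjusted p = 0.000146). The groups did not overlap, and MHY library 24 had more than library 25 by a wide margin. At 24 h the values were 40.9 and 46.1 in DMSO and 64.1 and 65.8 in MHY, given with no test. Its tails at 48 h had medians of 72.6 and 70.7 nt in DMSO and 74.9 and 80.7 nt in MHY.

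Apoe, the lipid carrier apolipoprotein E, had 36.6 and 35.1 normalized reads in DMSO and 88.7 and 68.9 in MHY at 48 h, a log2 change of 1.14 ± 0.21 (SE, n = 2, limma adjusted p = 0.000146). The groups did not overlap, nor did they at 24 h, with 33.4 and 37.5 in DMSO and 56.0 and 73.7 in MHY. Its tail medians at 48 h were 93.96 and 88.8 nt in DMSO and 107 and 87.4 nt in MHY, on 34 to 129 reads, and overlapped. Apoe and Vim are expressed in mesenchymal, glial and endoderm-like cells as well. The summed markers of endoderm, mesoderm and fibroblasts at 48 h were 88.9 to 259 RPM in DMSO and 70.6 to 220 RPM in MHY. In that list only 1 gene had at least 20 reads.

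Rpl7a had 918 and 1043 normalized reads in DMSO and 723 and 848 in MHY at 48 h, a log2 change of -0.35 ± 0.093 (SE, n = 2, limma adjusted p = 0.0290). The MHY values were under both DMSO values. With the 4 libraries of 48 h alone, a fit added after the data had been seen, Rpl7a was not called (-0.33, limma adjusted p = 0.204), while Apoe (1.15, 0.00126) and Vim (1.10, 0.00532) were. Rpl7a was also not called with library totals as the scale (-0.25, limma adjusted p = 0.103), nor without DMSO library 25 (-0.24, limma adjusted p = 0.632). Of the 178 tested transcripts on the study's TOP list, 10 were called lower and 1 higher in read number, against 1.34% and 0.39% of all transcripts. In the tail fits 6 of its 135 transcripts were called higher in the <30-nt share (0.375% of all), 2 higher in the ~60-nt share (0.268%) and 16 lower in the median tail (1.39%). These counts rest on single libraries. Without MHY library 24 no transcript at all was called in the 3 tail measures and 6 of 4104 were called lower in read number, without DMSO library 25 the tail calls were 1, 0 and 0 and the lower read calls 10, and without MHY library 25 no transcript was called in the <30-nt share. With library totals 24 transcripts were called lower in read number, where size factors gave 55. Vim and Rpl7a are both on the TOP list. No proteasome transcript was called in reads (0 of 36) or in either tail share or median (0 of 32), nor any mitochondrial ribosomal protein (0 of 85 and 0 of 55). At the shares called over all transcripts, 1.73% for reads and at most 1.39% for tails, lists of these sizes would hold few calls or none.

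**Figure D5:**
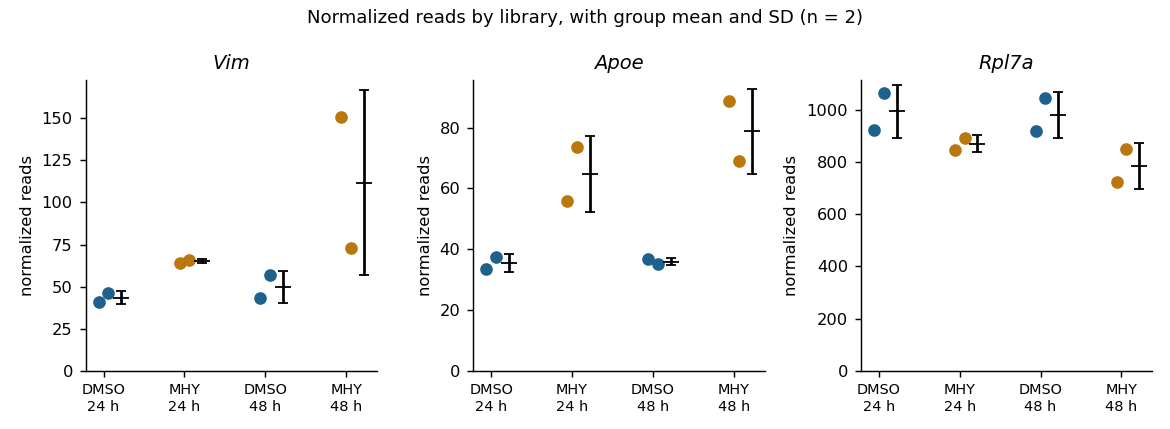
Normalized reads (vertical axis, reads divided by a size factor) of the 3 members called at 48 h, by group. Points are libraries (blue DMSO, orange MHY), and the bar beside them is the mean with its SD (n = 2). Vim and Apoe are higher in both MHY libraries of 48 h, at 73.1 and 151 and at 68.9 and 88.7, and Rpl7a is lower, at 723 and 848.

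Under MHY alone, tails at 48 h were set against those at 24 h, 2 groups that the rule did not use. In pooled member reads the <30-nt share was 4.12% and 3.96% at 24 h and 7.68% and 5.30% at 48 h, without overlap. That of other ranked transcripts was 1.92% and 1.89%, then 3.97% and 3.02%. No member was called (4 of 1866 transcripts were, 0.214%), while 16 passed at an unadjusted limma p under 0.05, each higher (11.2% of all passed). The lowest adjusted p was that of Phb2, prohibitin 2 of the inner mitochondrial membrane, named after its value was seen (2.62 ± 0.42 log2 odds ± SE, limma adjusted p = 0.0591). Its <30-nt share under MHY at 24 h was 1.80% of 167 reads and 0.826% of 121 reads, so the change starts from very few short reads. At 48 h it was 9.63% and 8.63%.

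In the median tail, 15 members passed at an unadjusted limma p under 0.05 (10.4% of all passed), and 1 member was called, Rpl32, which fell by 7.04 nt (SE 1.99, n = 2, limma adjusted p = 0.0489), where 27 of 1866 transcripts (1.45%) were called, all lower. The call was lost when MHY library 21, 23 or 24 was left out, and kept without library 25. The change was -7.76 nt without library 21 (limma adjusted p = 0.223) and -6.41 nt without library 23 (0.352), about as large as before, and -4.06 nt without library 24 (0.953). The median change was -5.21 nt over members and -5.58 nt over other transcripts. It was -1.73 and -2.25 nt without library 24, -8.94 and -8.59 nt without library 25, and -3.23 and -4.84 nt without library 23. The mean translocation rate of members' reads, which enters the estimate of tail length, was 118 nt per second in both MHY libraries of 24 h and 112 in both of 48 h. Its part in this comparison was not tested.

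At 24 h, where the DMSO libraries had made the choice, members lay higher under MHY and other transcripts lower. The pooled median of members was 81.9 and 82.7 nt in DMSO and 83.5 and 86.5 nt in MHY, and that of other ranked transcripts 99.6 and 101.1 nt in DMSO and 98.1 and 99.1 nt in MHY. The members' <30-nt share was 4.49% and 5.21% in DMSO and 4.12% and 3.96% in MHY. Because low values in these DMSO libraries defined the members, no change is read from this.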

How the data were processed

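The deposited table lists 1 alignment per line, with no read counts. The authors used Guppy for base calling, minimap2 (version 2.20) for alignment to GENCODE vM17 transcripts (mm10), Nanopolish for tail lengths in nt and Deeplexicon to sort barcodes. Barcode confidence was deposited as a fraction, from 0 to 1. The mapping quality given by the authors is a score of the aligner. Of 2439710 alignments, those tagged PASS on mRNA other than mitochondrial and pseudogene transcripts were kept, once per read and transcript (1926118 reads).

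Transcripts needed 10 reads in every library for the tail fits. Their shares (log2 odds, 0.5 read added to each class) and median tails were fitted with limma 3.58.1, weighted by read number, with a mean for each group and all 8 libraries in 1 fit, and tests were two-sided. Read numbers (at least 10 reads in at least 2 libraries) were fitted with limma voom and median-of-ratios size factors. Scripts were tested on simulated data. The members, roles and gene lists were chosen with earlier results of these data known. Genes named one by one were the 10 lowest at baseline, those around the threshold, those called, the 5 most read, the 5 highest and 5 lowest and the 5 most variable outside baseline, and up to 4 per list, except for 1 gene that is not reported here. The labels give replicates of 1 cell line, which the paper calls biological. The p-values rest on the spread within the 4 groups of 2 libraries, with limma borrowing across transcripts. They speak for cultures of this line, and the spread may be partly technical. Lengths and 3′ ends came from GENCODE vM21, in which 99 of 100 members matched.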

Additional observations from a re-analysis of the deposited data

Results flagged for a closer look

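Of 37 named members examined, 4 had a read number that lay higher in both MHY libraries than in both DMSO libraries at one time point and lower in both at the other. The same held for 5 of all 100 members and for 244 of the 4104 transcripts tested in read number (5.95%). The difference between the times was not tested, and the 24 h values include the DMSO libraries that chose the members. The log2 ratio of MHY to DMSO in mean normalized reads of Cdca3 was 0.12 at 24 h and -0.68 at 48 h. For Gatad1 it was -0.98 at 24 h and 0.71 at 48 h, and for Rbm8a -0.53 and 0.45. For the Hspa8 member it was -0.11 and 0.35. None of the 4 was called at 48 h.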

How the results depend on the processing

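Leaving out 1 library at a time left 0 to 4 members called in read number at 48 h, 0 to 1 in the median tail at 48 h and 0 to 7 in the median tail of MHY over time, and 0 in the other tests. Read number gave 9 members without a filter on low counts, and library totals, which moved the median change of all transcripts by 0.10 (log2), gave 2 and raised the share of higher calls from 22.5% to 47.8%. The 4 libraries of 48 h alone gave 2 members in read number, with 28 transcripts in all. The median tail gave 1 member at 48 h with the mean tail, and 0 over time with no weights, and the <30-nt share gave 3 with counting-variance weights. Over all transcripts, calls ranged from 0 to 30 for the <30-nt share (7 as reported), 0 to 33 for the ~60-nt share (5), 0 to 50 for the median tail (26), 11 to 213 for read number (71), and over time 0 to 5 (4) and 0 to 71 (27). The pooled 48 h difference ranged from 0.420 to 2.80 points for the <30-nt share, -2.60 to 0.586 points for the ~60-nt share and -4.68 to 2.52 nt for the median when 1 library was left out, and the first was 0.441 points for tails under 20 nt.

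Library numbers shared within a time point were not taken as pairs. The correlation of deviations across transcripts was -0.017 to 0.056 for tails and -0.010 and 0.115 for reads. It cannot show a shift common to all transcripts of a library. At 48 h number 24 had shorter pooled member tails than 25 in DMSO (80.1 against 82.9 nt) and in MHY (76.8 against 84.0 nt). From DMSO to MHY the members' <30-nt share rose within both numbers, while their median fell in 24 and rose in 25. Whether the numbers mark pairs was not settled. With the replicate block, 4 members were called in read number (3 without it) and 0 in each tail measure at 48 h. Across time points no number is shared, so no block could be fitted there.

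Members again among the lowest 100 numbered 59 of 59 with 100 or more reads (fixed by the rule, since the order of the rest is the same), 68 by the mean tail, 71 of 74 at a mapping quality of at least 10, 56 and 63 in library 21 or 23 alone, and 41, 46 and 35 in MHY at 24 h, DMSO at 48 h and MHY at 48 h (48 in these pooled, added later). Causes were not tested. The depth of most members, a median of 112 baseline reads, limits their single values.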
